A study of Mus musculus with 18 samples.

Results

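SR proteins, hnRNP proteins and related splicing regulators were examined in mouse lung cancer cells in which the kinase DSTYK had been lowered or raised. The set is the protein-coding genes whose symbols match Srsf, Hnrnp, Rbfox, Mbnl, Ptbp or Esrp followed by a member letter or number, together with Tra2a and Tra2b. It holds 44 of the 36047 genes with a listed transcript: 11 SR genes, 20 hnRNP genes, 3 Mbnl, 3 Ptbp and 3 Rbfox genes, 2 Tra2 genes and 2 Esrp genes. These genes have 429 listed transcripts, of which 218 are annotated as protein-coding, 46 as targets of nonsense-mediated decay, 106 as retained intron and 59 as processed transcript.

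The 18 RNA libraries form 6 groups of 3, from LLC cells (Lewis lung carcinoma, a line from C57BL/6 mice that is labelled lung adenocarcinoma) and from UN-SCC679 cells (an A/J line labelled lung squamous carcinoma). LLC sh3 cells carried the construct sh3 in the vector TPLKO and were compared with LLC cells carrying empty TPLKO. UN-SCC679 sh3 cells were likewise compared with UN-SCC679 cells carrying empty TPLKO, and all 4 of these groups had received doxycycline. UN-SCC679 cells with wild-type DSTYK in the vector pLENTI6 (OE_DSTYKwt, called OE cells) were compared with UN-SCC679 cells carrying empty pLENTI6, and for both of these groups the labels give no treatment. Vector and doxycycline are therefore shared within each comparison and differ between the TPLKO and pLENTI6 experiments. Each line stands for its tumour type alone, and the sh3 groups rest on 1 construct. Nothing in the labels tells whether the 3 libraries of a group are separate cultures, and p-values below may therefore reflect technical spread alone.

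SR proteins bind exon sequences through RNA recognition motifs and recruit the spliceosome through domains rich in arginine and serine, which the SRPK and CLK kinases phosphorylate. hnRNP proteins coat nascent transcripts and often act against them by hiding splice sites or exons, and Rbfox, Mbnl, Ptbp and Esrp proteins adjust exons in muscle, neurons or epithelia. Many SR and Tra2 genes hold a "poison" exon, an ultraconserved exon with an in-frame stop codon, whose inclusion sends the message to nonsense-mediated decay and keeps the protein's own level in check. An annotated decay transcript therefore counts towards the gene's total without adding a full-length open reading frame.

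The stop-carrying exons below are shown because the share of transcripts that hold them, or a transcript built on them, differed between groups in the results that follow. Each is read from the GENCODE mouse release 21 transcript in the sense direction on GRCm38 (mm10), from the exon's first base to the stop codon, which is in capitals.
Tra2b, chr16:22259181-22259261, minus strand: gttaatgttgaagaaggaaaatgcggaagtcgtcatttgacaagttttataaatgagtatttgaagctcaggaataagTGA
Tra2a, chr6:49252965-49253108, minus strand: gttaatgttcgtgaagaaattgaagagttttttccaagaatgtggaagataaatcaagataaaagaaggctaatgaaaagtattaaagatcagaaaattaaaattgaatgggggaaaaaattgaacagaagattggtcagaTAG
Srsf3, chr17:29039454-29039487, plus strand: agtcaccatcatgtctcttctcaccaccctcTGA
Srsf6, chr2:162932815-162932966, plus strand: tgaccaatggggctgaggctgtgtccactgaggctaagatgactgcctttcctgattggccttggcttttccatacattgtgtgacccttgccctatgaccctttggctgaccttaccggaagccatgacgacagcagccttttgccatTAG
Srsf7, chr17:80205054-80205081, minus strand: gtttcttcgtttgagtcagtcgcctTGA
The whole exons are longer and span 276 bases in Tra2b (chr16:22258986-22259261), 306 in Tra2a (chr6:49252803-49253108), 456 in Srsf3 (chr17:29039454-29039909), 268 in Srsf6 (chr2:162932815-162933082) and 460 in Srsf7 (chr17:80204622-80205081). In-frame coding exons of 2 hnRNP genes are shown with them, because they are the part that distinguishes hnRNP isoforms whose shares changed. The Hnrnpa2b1 exon of 120 bases and the Hnrnpab exon of 141 bases both encode stretches rich in glycine and tyrosine, and neither carries a stop codon in its reading frame.
Hnrnpa2b1, chr6:51464428-51464547, minus strand: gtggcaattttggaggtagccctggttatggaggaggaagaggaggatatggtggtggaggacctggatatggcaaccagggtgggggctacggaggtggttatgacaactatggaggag
Hnrnpab, chr11:51601750-51601890, minus strand: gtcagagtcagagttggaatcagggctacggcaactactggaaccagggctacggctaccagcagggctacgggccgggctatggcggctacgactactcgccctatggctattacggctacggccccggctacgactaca

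The splicing regulators took between 0.891% and 1.30% of a library's 40525385 to 46528071 estimated counts. Dstyk, the altered gene, had 22.7, 24 and 22.5 CPM (counts scaled to a common library size) in LLC sh3 cells, against 42.8, 40.6 and 44.8 CPM in LLC cells with the empty vector. In UN-SCC679 it had 26.6, 26.7 and 25.1 CPM in sh3 cells, against 36.4, 36.3 and 38 CPM in empty-vector cells. OE cells had 37.2, 37.4 and 38.6 CPM of Dstyk, against 29.6, 31 and 32.3 CPM with empty pLENTI6, so all 3 contrasts ran in the labelled direction. All 6 squamous markers were under 0.1 TPM (a level per transcript length) in LLC, as were 4 of 5 alveolar and club cell markers. In UN-SCC679, 2 to 4 of the 6 squamous markers reached 1 TPM in a group: Sox2 averaged 28.3 to 69.6 TPM over the 4 groups, Krt6a 0.340 to 59.6, Krt14 0.782 to 16.4 and Trp63 0.912 to 6.01, while Krt5 and Dsg3 were under 0.1 TPM. Nkx2-1, from the alveolar and club cell list, averaged 28.3 to 42.3 TPM there. The 5 fibroblast genes summed to between 1318 and 3932 TPM in UN-SCC679, most of it Col1a2, with Lum under 0.1 TPM in all 4 groups and Dcn in 3 of them. Leukocyte markers summed to at most 0.468 TPM in any library. The first empty pLENTI6 library stood apart from the other 2 of its group, with a mean chi-square per gene of 12.1 and 13.7 against at most 4.90 for every other pair of replicates, and the overexpression counts are given with and without it.

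The most abundant members were hnRNP genes. Hnrnpk, a binder of cytosine-rich stretches, led LLC sh3 cells with 1079 ± 3.38 TPM and LLC empty-vector cells with 1482 ± 19.8 TPM (mean ± SD, n = 3 in every group). Hnrnpa2b1, a binder of nuclear and transported RNA, led the 4 UN-SCC679 groups, from 1248 ± 26.9 TPM in sh3 cells and 1268 ± 29.7 TPM in empty TPLKO cells to 1492 ± 25.4 TPM in OE cells and 1509.7 ± 31.4 TPM in empty pLENTI6 cells. Hnrnpa1, which silences exons, Hnrnpf, a binder of runs of guanine, and Hnrnpab completed the first 5 in every group except LLC with the empty vector, where Hnrnph1 (579.6 ± 5.14 TPM) came before Hnrnpab (572 ± 7.88 TPM). At the other end, Esrp1, Rbfox1, Rbfox3 and Srsf12 had at most 8 counts in any library and could be tested in no comparison. Esrp2, an epithelial regulator, had between 4.0 and 7.1 counts in the 6 LLC libraries and between 55.4 and 112.3 in the 12 UN-SCC679 libraries, so it entered only the comparisons with UN-SCC679 libraries.

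The LLC knockdown asked how these regulators respond to less Dstyk. Nearly all of them were lower. Of 39 members tested, 34 were lower in LLC sh3 cells and 4 higher at an adjusted p under 0.05 in edgeR's quasi-likelihood test, and 36.4% of all 13767 genes tested were lower and 36.2% higher (72.6% in either direction). The median log2 change over the 39 members was -0.46, against 0.01 over all genes. The 4 neuronal markers summed to between 20.97 and 23.4 TPM in LLC sh3 cells, against 8.81 to 9.72 TPM in empty-vector cells, with 2 of 4 at 1 TPM or more in both groups, and the 5 fibroblast markers to between 27.6 and 28.2 TPM, against 15.8 to 17.2 TPM. The neuronal rise was mostly in Tubb3 (means of 10.2 TPM in sh3 cells and 3.46 TPM in empty-vector cells) and Nefl (11.5 and 4.998 TPM). Syp had a lower mean in sh3 cells (0.214 and 0.77 TPM), with overlapping libraries. The fibroblast rise was mostly in Dcn (means of 16.02 and 10.3 TPM) and Pdgfra (7.97 and 3.96 TPM). Col1a1 had a lower mean in sh3 cells (1.15 and 1.48 TPM), also with overlapping libraries. The part of either list in the members' changes was not tested. In bulk RNA, fewer cells of a type and less RNA per cell cannot be told apart. The libraries of both groups did not overlap for 38 of the 39 members, against 76% of all genes.

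**Figure D1:**
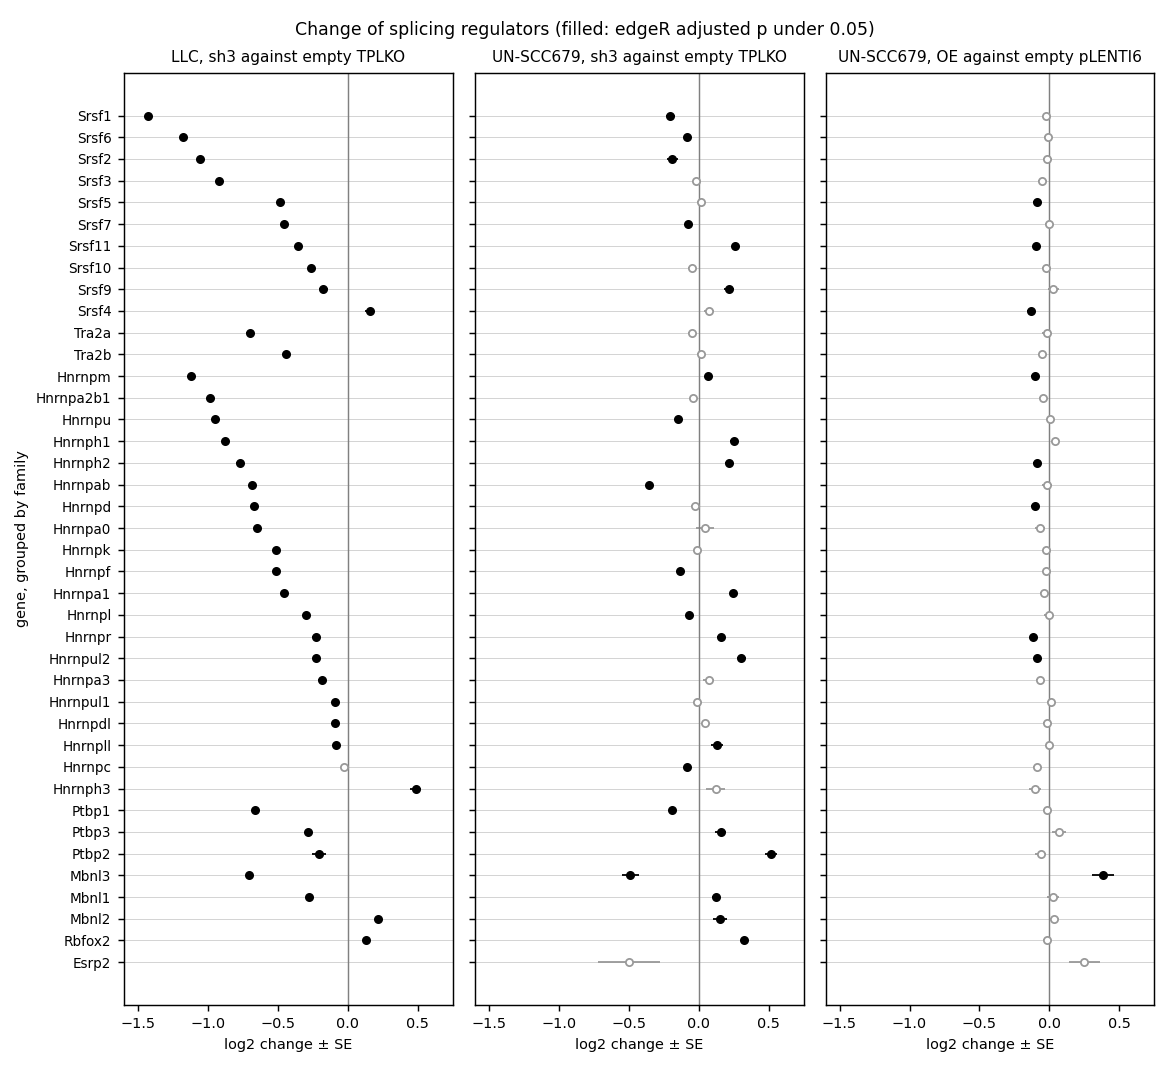
Log2 change (± SE, horizontal axis) of each tested splicing regulator, by family, in LLC sh3 cells, UN-SCC679 sh3 cells and UN-SCC679 OE cells against their own empty-vector cells (n = 3 libraries per group). Filled points had an adjusted p under 0.05; they cover 38 of 39 members in LLC, where most lie left of 0, 25 of 40 on both sides of 0 in the UN-SCC679 knockdown, and 9 of 40 in the overexpression.

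Among SR genes in LLC, 9 of 10 tested fell and 1 rose. Srsf1, the exon enhancer binder first described as SF2/ASF, had 94.7, 93.5 and 94.9 CPM in sh3 cells, against 258, 254 and 251 CPM in empty-vector cells. This was the largest change of any member, 2.70-fold lower (log2 change -1.43 ± 0.019 SE, edgeR adjusted p = 1.68e-14). Srsf6 had 148, 146 and 144 CPM in sh3 cells, against 333, 325 and 333 CPM in empty-vector cells, a log2 change of -1.18 ± 0.018 (SE). Srsf2, known as SC35 and a marker of nuclear speckles, had 194, 196 and 197 CPM in sh3 cells, against 416, 404 and 403 CPM in empty-vector cells, a log2 change of -1.06 ± 0.018 (SE). Srsf3, the gene of the smallest SR protein, had 253, 251 and 255 CPM in sh3 cells, against 489, 482 and 469 CPM in empty-vector cells, a log2 change of -0.92 ± 0.018 (SE). The edgeR adjusted p of these 3 genes was 2.30e-13 or smaller, and in each the 3 sh3 libraries lay far below the lowest empty-vector library. Srsf5, Srsf7, Srsf11, Srsf10 and Srsf9 fell by less, with log2 changes between -0.48 and -0.18. Srsf4 was the exception among SR genes and rose, with 63, 65.8 and 64.4 CPM in sh3 cells against 57.7, 55.9 and 59.8 CPM in empty-vector cells (log2 change 0.16 ± 0.032 SE, edgeR adjusted p = 7.21e-04).

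Among hnRNP genes in LLC, 18 of 20 fell, 1 rose and 1 was not called. Hnrnpm, an hnRNP protein that binds GU-rich RNA, had 175, 170.3 and 171 CPM in sh3 cells, against 377, 370.1 and 379 CPM in empty-vector cells (log2 change -1.12 ± 0.017 SE, edgeR adjusted p = 3.90e-14). Hnrnpa2b1 had 622, 611 and 624 CPM in sh3 cells, against 1238, 1228 and 1215 CPM in empty-vector cells, 1.98-fold lower. Hnrnpu, a scaffold protein of the nuclear matrix, had 200, 197 and 203 CPM in sh3 cells, against 387, 387 and 387 CPM in empty-vector cells, a log2 change of -0.95 ± 0.016 (SE). Hnrnph1, a binder of guanine runs, had 314, 311 and 304 CPM in sh3 cells, against 581, 569 and 557 CPM in empty-vector cells, a log2 change of -0.88 ± 0.019 (SE). For these genes the groups lay far apart relative to the spread within them, and the edgeR adjusted p was 5.54e-13 or smaller for all 4. The other called hnRNP genes that fell had log2 changes between -0.77 for Hnrnph2 and -0.09 for Hnrnpll. Hnrnpc, which binds uridine tracts, had 325, 326 and 330.0 CPM in sh3 cells, against 341, 329 and 331 CPM in empty-vector cells, and these overlapped (log2 change -0.03 ± 0.017 SE, edgeR adjusted p = 0.14). Hnrnph3, the least abundant tested hnRNP gene, rose: 27.3, 26.7 and 26.6 CPM in sh3 cells, against 18.6, 19.7 and 19.3 CPM in empty-vector cells (log2 change 0.48 ± 0.041 SE, edgeR adjusted p = 1.96e-07).

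**Figure D2:**
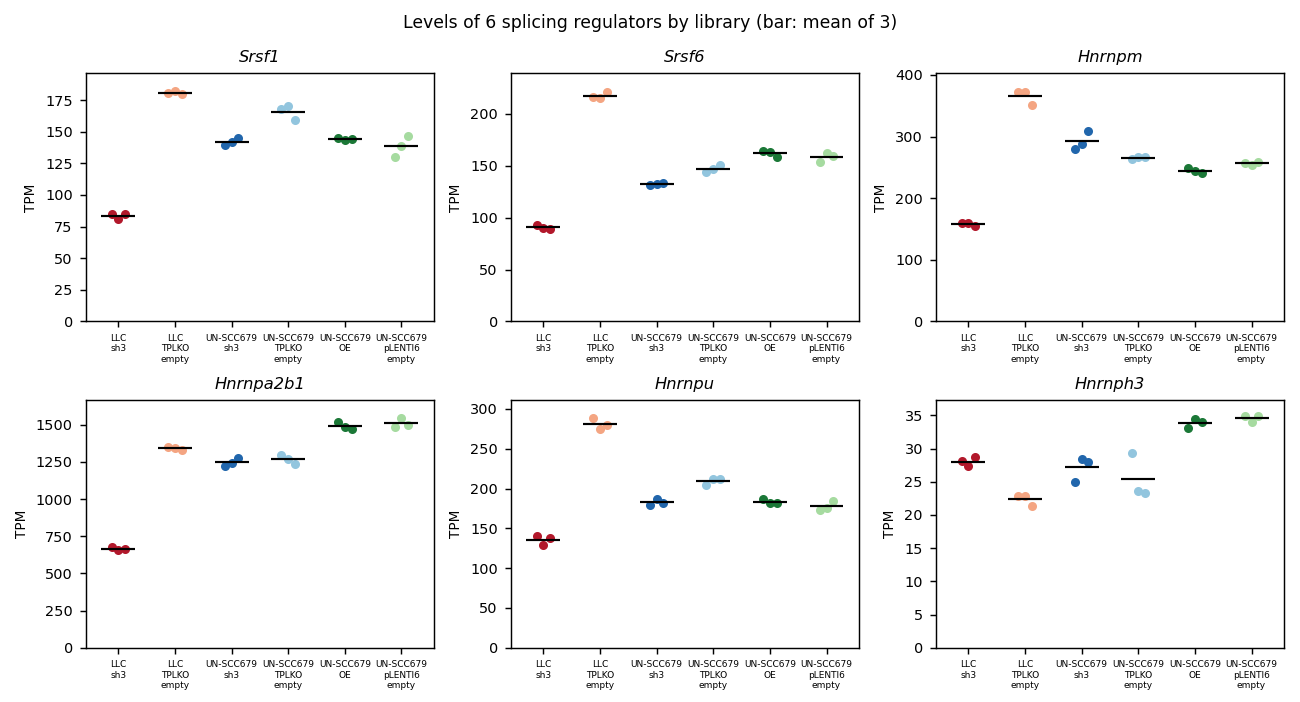
Level (TPM, vertical axis from 0) of Srsf1, Srsf6, Hnrnpm, Hnrnpa2b1, Hnrnpu and Hnrnph3 in each of the 18 libraries, by group. Points are libraries and bars the mean of 3. In the first 5 genes the LLC sh3 libraries lie below LLC libraries with the empty vector, and Hnrnph3 is higher in LLC sh3 cells. In the first 5 genes the UN-SCC679 sh3 libraries lie closer to theirs. They are below them for Srsf1, Srsf6 and Hnrnpu, above them for Hnrnpm, and overlap them for Hnrnpa2b1.

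Among the Mbnl, Ptbp and Rbfox genes in LLC, Mbnl3, an X-linked muscleblind gene whose family binds YGCY motifs, had 69.5, 71.2 and 70.9 CPM in sh3 cells, against 115, 117 and 113 CPM in empty-vector cells (log2 change -0.70 ± 0.025 SE, edgeR adjusted p = 4.51e-11). Mbnl1 fell (log2 change -0.28 ± 0.023 SE) and Mbnl2 rose (log2 change 0.21 ± 0.017 SE), so the 3 muscleblind genes did not move as 1 group. Ptbp1, which binds polypyrimidine tracts and represses neuronal exons, had 413, 415 and 413 CPM in sh3 cells, against 653, 654 and 661 CPM in empty-vector cells (log2 change -0.67 ± 0.013 SE, edgeR adjusted p = 2.93e-13). Its neuronal paralogue Ptbp2, whose message PTBP1 is known to repress, had 28.6 ± 1.30 CPM in sh3 cells and 33 ± 1.92 CPM in empty-vector cells (SD, n = 3 each), a log2 change of -0.21 ± 0.048 (SE). Ptbp3 also fell, by 0.29 on the log2 scale. Rbfox2, the only Rbfox gene with more than trace counts, had 242, 245 and 243 CPM in sh3 cells, against 224, 223 and 219 CPM in empty-vector cells (log2 change 0.13 ± 0.017 SE, edgeR adjusted p = 9.93e-06); with limma on log2(TPM + 1) this call was lost.

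Transcript shares also changed in LLC. Of 200 member transcripts tested in 37 genes, 55 in 25 genes had a changed share of their gene's counts (limma on log2 odds, adjusted p under 0.05), against 7.31% of all transcripts tested. Leaving out any 1 of the 6 libraries gave 25 to 33 called member transcripts, and edgeR's diffSpliceDGE called 33. Both Tra2 genes, whose proteins activate exons with GAA-rich enhancers, shifted to their poison-exon transcripts. The decay transcript Tra2a-202 took 41.2, 42.9 and 49.5% of Tra2a in sh3 cells, against 18.4, 21.3 and 21% in empty-vector cells (log2 odds 1.66 ± 0.17 SE, limma adjusted p = 0.00742). The decay transcript Tra2b-206 took 35.8, 36.7 and 37.6% of Tra2b in sh3 cells, against 14.1, 13.5 and 15.7% in empty-vector cells (log2 odds 1.78 ± 0.10 SE, limma adjusted p = 0.00159). The coding transcript Tra2b-201 took 15.9, 15.5 and 15% in sh3 cells, against 34.3, 37 and 34.3% in empty-vector cells, a log2 odds change of -1.57 ± 0.092 (SE). Without regard to transcript shares, Tra2a fell by 0.70 and Tra2b by 0.44 on the log2 scale (edgeR adjusted p = 3.04e-11 and 3.80e-10).

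Srsf3 had the same kind of shift. Its only tested coding transcript, Srsf3-202, took 7.81, 7.21 and 9.46% of Srsf3 in sh3 cells, against 33.4, 33.8 and 31% in empty-vector cells (log2 odds -2.46 ± 0.14 SE, limma adjusted p = 0.00145). The decay transcript Srsf3-201, which holds the poison exon, took 50.4, 52.5 and 50% in sh3 cells, against 37.4, 37.6 and 39.5% in empty-vector cells (log2 odds 0.75 ± 0.078 SE, limma adjusted p = 0.00821). Not every decay transcript moved this way: Srsf6-201 took 26, 24.6 and 25.2% of Srsf6 in sh3 cells, against 29.9, 32.1 and 32.1% in empty-vector cells, a fall (log2 odds -0.44 ± 0.086 SE, limma adjusted p = 0.0448). For Srsf7 the decay transcript Srsf7-203 took 11.3, 10.7 and 10.3% in sh3 cells, against 8.45, 9.89 and 8.30% in empty-vector cells, and was not called (limma adjusted p = 0.204).

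Counting every listed transcript that holds the whole stop-carrying exon gave the same order of groups. The Tra2b exon was on transcripts with 38.8, 40.1 and 40.3% of the Tra2b counts in LLC sh3 cells, against 16.2, 15.4 and 17.2% in LLC empty-vector cells. The Srsf3 exon was on 68.9, 69.96 and 69.2% in LLC sh3 cells, against 50.7, 51.2 and 53.1% in LLC empty-vector cells. For Tra2a these shares are those of Tra2a-202, the only listed transcript with its exon. The Srsf6 exon was on 38.5, 36.5 and 36.8% in LLC sh3 cells, against 40.6, 42.9 and 43.5% in LLC empty-vector cells, and the Srsf7 exon on 40.6, 40.1 and 39.5% against 39.3, 38.9 and 37.6%. Here and below, a transcript was counted when a single exon of it covered the whole stretch, also where that exon ran on beyond it. Transcripts that keep a neighbouring intron can therefore be included. For Srsf7 most of the share lay on Srsf7-206 and Srsf7-207 rather than on Srsf7-203. The transcripts of a gene also differ in their ends, so a share taken over whole transcripts does not measure the exon alone, and no test was run on these sums.

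**Figure D3:**
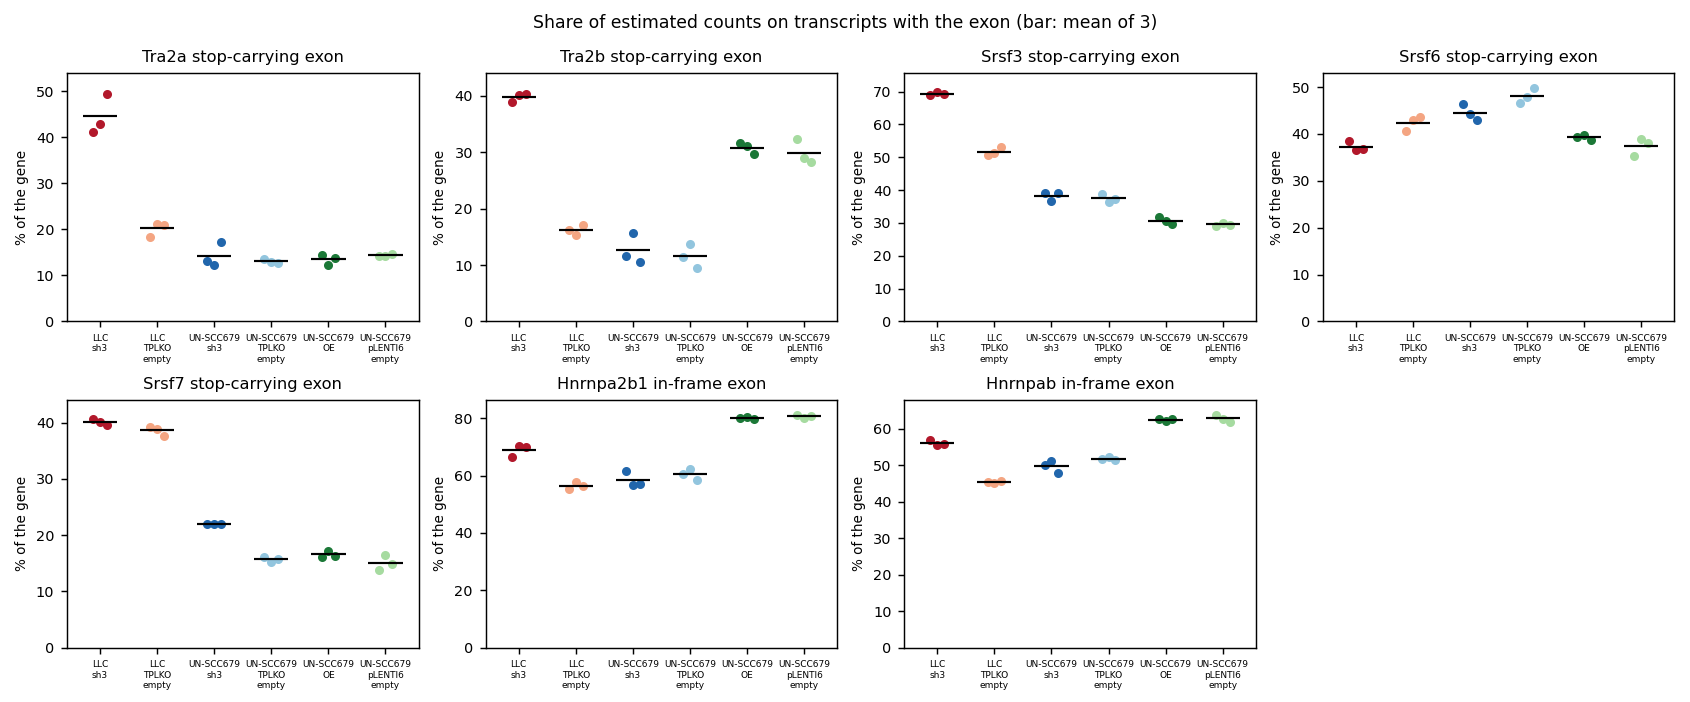
Share of a gene's estimated counts on transcripts that hold the exon (percent, vertical axis from 0) for the stop-carrying exons of Tra2a, Tra2b, Srsf3, Srsf6 and Srsf7 and the in-frame exons of Hnrnpa2b1 and Hnrnpab, in 18 libraries by group. Transcripts whose own exon covers the stretch and runs on beyond it are counted too. Points are libraries and bars the mean of 3. The LLC sh3 libraries are highest for Tra2a, Tra2b and Srsf3 and lie below LLC empty-vector libraries for Srsf6.

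For some members, a shift away from coding transcripts also appeared in the sum of all transcripts of a gene not annotated as protein-coding. Of 34 members tested in LLC, this non-coding share rose in 10 and fell in 1 (limma on log2 odds, adjusted p under 0.05), while it rose in 8.61% and fell in 1.92% of all 7446 genes tested. Without any 1 of the 6 libraries, 5 to 7 members were called. The median log2 odds change was 0.24 over the 34 members, against 0.17 over all genes. For Srsf3 the non-coding share was 92.2, 92.8 and 90.5% in sh3 cells, against 66.6, 66.2 and 69% in empty-vector cells (log2 odds 2.46 ± 0.14 SE, limma adjusted p = 0.00306). For Tra2a it was 60.5 ± 4.29% in sh3 cells and 33.6 ± 1.51% in empty-vector cells, and for Tra2b 42.1 ± 0.885% in sh3 cells and 18.1 ± 0.842% in empty-vector cells (SD, n = 3 each). For Srsf5 the values were 45.8 ± 2.02% in sh3 cells and 24.5 ± 1.13% in empty-vector cells, for Srsf1 22.3 ± 0.617% and 9.95 ± 0.617%, and for Hnrnpdl, an AU-rich element binder, 24.6 ± 0.483% and 14.3 ± 2.68%. The limma adjusted p of these 5 genes lay between 0.00338 and 0.0321, and that of Hnrnpdl was above 0.05 without any library except the first empty-vector one. Srsf2, Srsf9, Srsf10 and Hnrnpul1 were the other members whose share rose. Srsf11 was the member whose share fell, to 44.1 ± 1.34% in sh3 cells, against 54.3 ± 1.77% in empty-vector cells (limma adjusted p = 0.0388). Its call was lost whichever of the 6 libraries was left out, and with effective-length weighting. In the summed counts of all members, retained-intron transcripts held 9.36 ± 0.241% in sh3 cells and 8.42 ± 0.117% in empty-vector cells. Decay transcripts held 9.93 ± 0.0579% and 9.52 ± 0.0262% (SD, n = 3 each). Over all protein-coding genes, retained-intron transcripts held between 3.80% and 3.87% of counts in LLC sh3 cells, against 3.55% to 3.62% in LLC empty-vector cells. Decay transcripts held between 3.65% and 3.71% there, against 3.54% to 3.59%. The part of these all-gene differences in the members' shares was not tested.

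On protein-coding transcripts alone, several of these genes fell further than over all transcripts. Srsf3 on coding transcripts had 22.6, 20.8 and 27.6 CPM in sh3 cells, against 185, 185 and 165 CPM in empty-vector cells, a log2 change of -2.91 ± 0.085 (SE) where all transcripts gave -0.92. Tra2a on coding transcripts had 46.6, 42.6 and 37.7 CPM in sh3 cells, against 117, 113 and 113 CPM in empty-vector cells, a log2 change of -1.44 ± 0.062 (SE) against -0.70 over all transcripts. Tra2b on coding transcripts changed by -0.93 ± 0.021 (SE) and Srsf5 by -0.95 ± 0.028 (SE), against -0.44 and -0.48 over all transcripts. Srsf6 went the other way, with -1.04 ± 0.027 (SE) on coding transcripts against -1.18 over all. Srsf11 lost its call on coding transcripts alone (log2 change -0.05 ± 0.037 SE, edgeR adjusted p = 0.287).

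**Figure D4:**
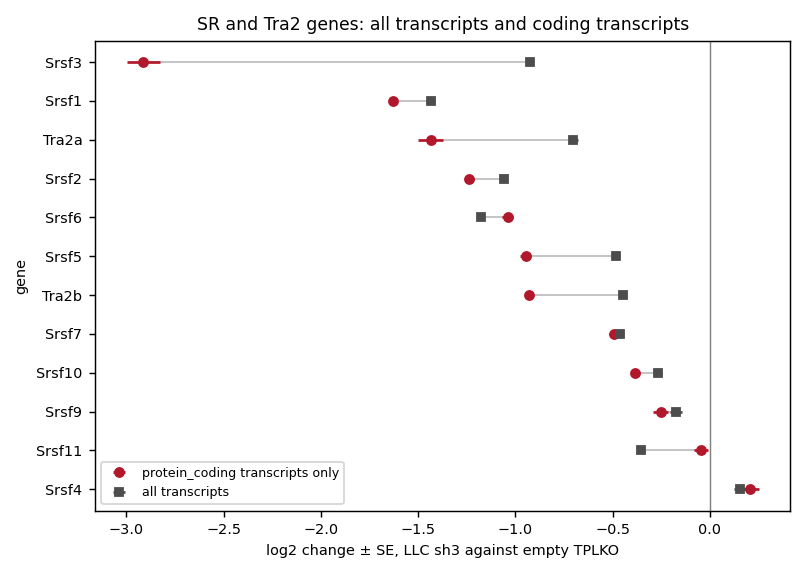
Log2 change (± SE, horizontal axis) of SR and Tra2 genes in LLC sh3 cells against LLC empty-vector cells, from protein_coding transcripts alone (circles) and from all transcripts (squares), with a line joining both values of a gene. Srsf3, Tra2a, Tra2b and Srsf5 lie further left on coding transcripts, and Srsf11 and Srsf6 further right.

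Shares also changed among coding isoforms of hnRNP genes in LLC. Hnrnpdl-202 took 16.3, 16.5 and 18% of Hnrnpdl in sh3 cells, against 45.9, 43.8 and 45.7% in empty-vector cells (log2 odds -2.01 ± 0.093 SE, limma adjusted p = 7.59e-04). Hnrnpdl-207 took 59.2, 58.3 and 57.8% in sh3 cells, against 42.8, 39.8 and 39% in empty-vector cells, a log2 odds change of 1.04 ± 0.091 (SE). These isoforms share their stop codon and differ after it, where an intron is spliced in Hnrnpdl-202 and kept in Hnrnpdl-207, while Hnrnpdl as a whole changed little (log2 change -0.09 ± 0.018 SE). In Hnrnpa2b1 the coding isoforms Hnrnpa2b1-201 and Hnrnpa2b1-210, which skip the in-frame exon printed above, lost share: Hnrnpa2b1-201 had 7.17 ± 0.337% in sh3 cells and 15.4 ± 0.351% in empty-vector cells, and Hnrnpa2b1-210 had 7.95 ± 1.02% and 15.1 ± 1.36% (SD, n = 3 each; limma adjusted p = 0.00179 and 0.0162). Transcripts with that exon held 66.4, 70.3 and 69.97% of Hnrnpa2b1 in LLC sh3 cells, against 55.4, 57.8 and 56.4% in LLC empty-vector cells. In Hnrnpab the isoform without its in-frame exon, Hnrnpab-201, took 43.2, 44.4 and 44.1% in sh3 cells, against 54.6, 54.9 and 54.4% in empty-vector cells (log2 odds -0.62 ± 0.056 SE, limma adjusted p = 0.00551). The Hnrnpa2b1 and Hnrnpab isoforms described here were chosen after their values were seen.

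The UN-SCC679 knockdown, which asked the same question in the other line, gave shares of called members close to those of all genes. Of 40 tested, 14 were higher in sh3 cells and 11 lower (edgeR adjusted p under 0.05), against 31.8% of all 14271 genes tested higher and 32% lower (63.8% in either direction). With library size alone as scaling, 21 were higher and 7 lower, and that scaling moved the median of all genes by 0.0587 on the log2 scale. The median log2 change was 0.02 over the members and 0.01 over all genes. The groups did not overlap for 26 of 40 members, against 68.2% of all genes. The 6 squamous markers summed to between 50.2 and 53.6 TPM in sh3 cells, against 32.3 to 37.7 TPM in empty-vector cells. The squamous rise was mostly in Krt14 (means of 16.4 and 3.42 TPM) and Trp63 (6.01 and 0.912 TPM), while Sox2 did not rise (28.3 and 29.5 TPM). The 4 neuronal markers summed to between 5.28 and 5.78 TPM in sh3 cells, against 12.2 to 13.2 TPM. The neuronal fall was in Tubb3 (means of 3.38 TPM in sh3 cells and 11.3 TPM in empty-vector cells), while Snap25 was higher (1.71 and 0.927 TPM). The 6 epithelial markers summed to between 339 and 357 TPM in sh3 cells, against 543 to 568 TPM. The 5 fibroblast markers summed to between 3043 and 3100 TPM, against 3822 to 3932 TPM. The epithelial fall was in Krt8 (means of 249 and 385 TPM) and Krt18 (100 and 175 TPM). Krt19 (0.534 and 0 TPM) and Cdh1 (0.196 and 0.00782 TPM) had higher means in sh3 cells. The fibroblast fall was in Col1a2 (means of 2739 and 3722 TPM). Col1a1 (311 and 152 TPM), Pdgfra (15.3 and 1.94 TPM) and Dcn (0.614 and 0.0940 TPM) were higher in sh3 cells. The part of these lists was not tested. On chromosome 17, which holds Srsf3, Srsf7, Hnrnpll and Hnrnpm, the median gene changed by 0.25 on the log2 scale, and on chromosome 19, which holds Hnrnpul2, by 0.29; with each chromosome's median as an offset, 14 members were higher and 14 lower.

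Ptbp2 had the largest rise in UN-SCC679 sh3 cells, with 35.2, 37.4 and 38 CPM against 26, 26.1 and 25.1 CPM in empty-vector cells (log2 change 0.52 ± 0.042 SE, edgeR adjusted p = 5.32e-07). Ptbp1 fell, with 547, 549 and 551 CPM in sh3 cells against 625, 620.4 and 635 CPM in empty-vector cells, a log2 change of -0.19 ± 0.017 (SE). Ptbp3 rose by 0.16 on the log2 scale. Mbnl3 had the largest fall among called members, with 15.9, 15.1 and 15.2 CPM in sh3 cells against 23.1, 21.7 and 19.98 CPM in empty-vector cells (log2 change -0.49 ± 0.062 SE, edgeR adjusted p = 2.52e-05), while Mbnl1 rose by 0.12 and Mbnl2 by 0.15. The Mbnl2 call was lost on coding transcripts alone and without the second or the third empty-vector library or the third sh3 library. Rbfox2 rose, with 282, 287 and 282 CPM in sh3 cells against 230.4, 227 and 223 CPM in empty-vector cells, a log2 change of 0.32 ± 0.020 (SE). Esrp2 had 1.54, 2.0 and 1.34 CPM in sh3 cells against 2.68, 2.48 and 1.75 CPM in empty-vector cells, and these overlapped (log2 change -0.50 ± 0.22 SE, edgeR adjusted p = 0.0683).

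Of hnRNP genes in UN-SCC679 sh3 cells, 7 of 20 rose and 5 fell, and of SR genes 2 of 10 rose and 4 fell. Hnrnpab had 482, 507 and 495 CPM in sh3 cells, against 639.8, 626 and 631 CPM in empty-vector cells, the largest fall after Mbnl3 among called members (log2 change -0.35 ± 0.021 SE, edgeR adjusted p = 3.59e-08). Hnrnpul2, a relative of Hnrnpu, had 197, 190.3 and 198 CPM in sh3 cells, against 166, 156 and 152 CPM in empty-vector cells; it rose by 0.31 on the log2 scale, which is close to the median of its chromosome, and its call was lost with the chromosome's median as an offset. Hnrnpa1 had 653, 669 and 659.8 CPM in sh3 cells, against 565, 551 and 554 CPM in empty-vector cells, a log2 change of 0.25 ± 0.018 (SE). Hnrnph1 had 410.0 ± 18.7 CPM in sh3 cells and 344 ± 9.67 CPM in empty-vector cells (SD, n = 3 each), a log2 change of 0.25 ± 0.031 (SE). Srsf11 had 188 ± 4.55 CPM in sh3 cells and 157 ± 4.15 CPM in empty-vector cells (SD, n = 3 each), a log2 change of 0.26 ± 0.026 (SE). Srsf1, Srsf2, Srsf6 and Srsf7 fell, by 0.20, 0.19, 0.08 and 0.08 on the log2 scale; on coding transcripts alone Srsf6 was at 0.02 and Srsf2 at -0.09, neither called (edgeR adjusted p = 0.69 and 0.296), while Srsf5 was called at -0.19 (edgeR adjusted p = 0.0015). Neither Tra2 gene was called: Tra2a had a log2 change of -0.05 ± 0.026 (SE) and Tra2b of 0.02 ± 0.030 (SE), and the direction of Tra2b turned to -0.14 with its chromosome's median as an offset.

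Transcript shares moved little in the UN-SCC679 knockdown. Of 201 member transcripts tested, 1 had a changed share (limma adjusted p under 0.05), against 0.218% of all transcripts tested, and 28 had an unadjusted p under 0.05. It was Hnrnpa2b1-201, with 9.07, 9.56 and 9.66% of Hnrnpa2b1 in sh3 cells against 17, 16.2 and 16.4% in empty-vector cells (log2 odds -0.93 ± 0.076 SE, limma adjusted p = 0.0255). This call was lost whichever of the 6 libraries was left out, and edgeR's diffSpliceDGE called 1 member transcript, with a higher share. The other coding isoform without the in-frame exon, Hnrnpa2b1-210, took 23.8 ± 1.95% in sh3 cells and 17.1 ± 1.91% in empty-vector cells and was not called (SD, n = 3 each; limma adjusted p = 0.401), and transcripts with the exon held 61.7, 56.9 and 56.9% in sh3 cells, against 60.6, 62.4 and 58.5% in empty-vector cells. No member's non-coding share was called by limma among 34 tested, where 0.0668% of all genes were called higher and 0.0668% lower, and 3 members and 704 of the 7484 genes had an unadjusted p under 0.05. The Srsf7 exon was on transcripts with 22.1, 22 and 21.9% of Srsf7 in sh3 cells, against 16.1, 15.3 and 15.8% in empty-vector cells, and the groups did not overlap, but its non-coding share had a limma adjusted p of 0.302. Tra2a-202 took 14.2 ± 2.66% in sh3 cells and 13.1 ± 0.492% in empty-vector cells, and Tra2b-206 took 11.4 ± 2.69% and 10.5 ± 2.32% (SD, n = 3 each; limma adjusted p = 0.858 and 0.901).

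The knockdowns share no library, and their difference was tested as an interaction in edgeR on all 12 libraries. Of 40 members tested, 36 had different sh3 effects in LLC and UN-SCC679, against 60% of all 15399 genes tested. In 35 of them the LLC effect was the lower one, as it was for 4909 of all 15399 genes tested. Over all genes, 36.4% were lower and 36.2% higher in LLC sh3 cells, and 32% lower and 31.8% higher in UN-SCC679 sh3 cells. The share of all genes called in both knockdowns was not computed, so the member counts that follow stand without that background. Among genes called in both knockdowns, 10 were lower in both (Hnrnpab, Hnrnpf, Hnrnpl, Hnrnpu, Mbnl3, Ptbp1, Srsf1, Srsf2, Srsf6 and Srsf7) and 2 higher in both (Mbnl2 and Rbfox2). Another 12 were lower in LLC sh3 cells and higher in UN-SCC679 sh3 cells: Hnrnpa1, Hnrnph1, Hnrnph2, Hnrnpll, Hnrnpm, Hnrnpr, Hnrnpul2, Mbnl1, Ptbp2, Ptbp3, Srsf11 and Srsf9, but relative to the median of their chromosome in UN-SCC679 sh3 cells Hnrnpm and Hnrnpll turned to -0.18 and -0.12 on the log2 scale and Hnrnpul2 was at 0.02. The interaction of Ptbp2 was -0.73 ± 0.067 (SE, LLC minus UN-SCC679, edgeR adjusted p = 9.33e-08) and that of Mbnl3 -0.22 ± 0.058 (SE, edgeR adjusted p = 0.00382). Srsf4, Hnrnpc, Mbnl2 and Esrp2 were the members whose effects were not shown to differ, with interactions of 0.08 ± 0.045, 0.05 ± 0.025, 0.05 ± 0.055 and 0.59 ± 0.51 (SE).

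**Figure D5:**
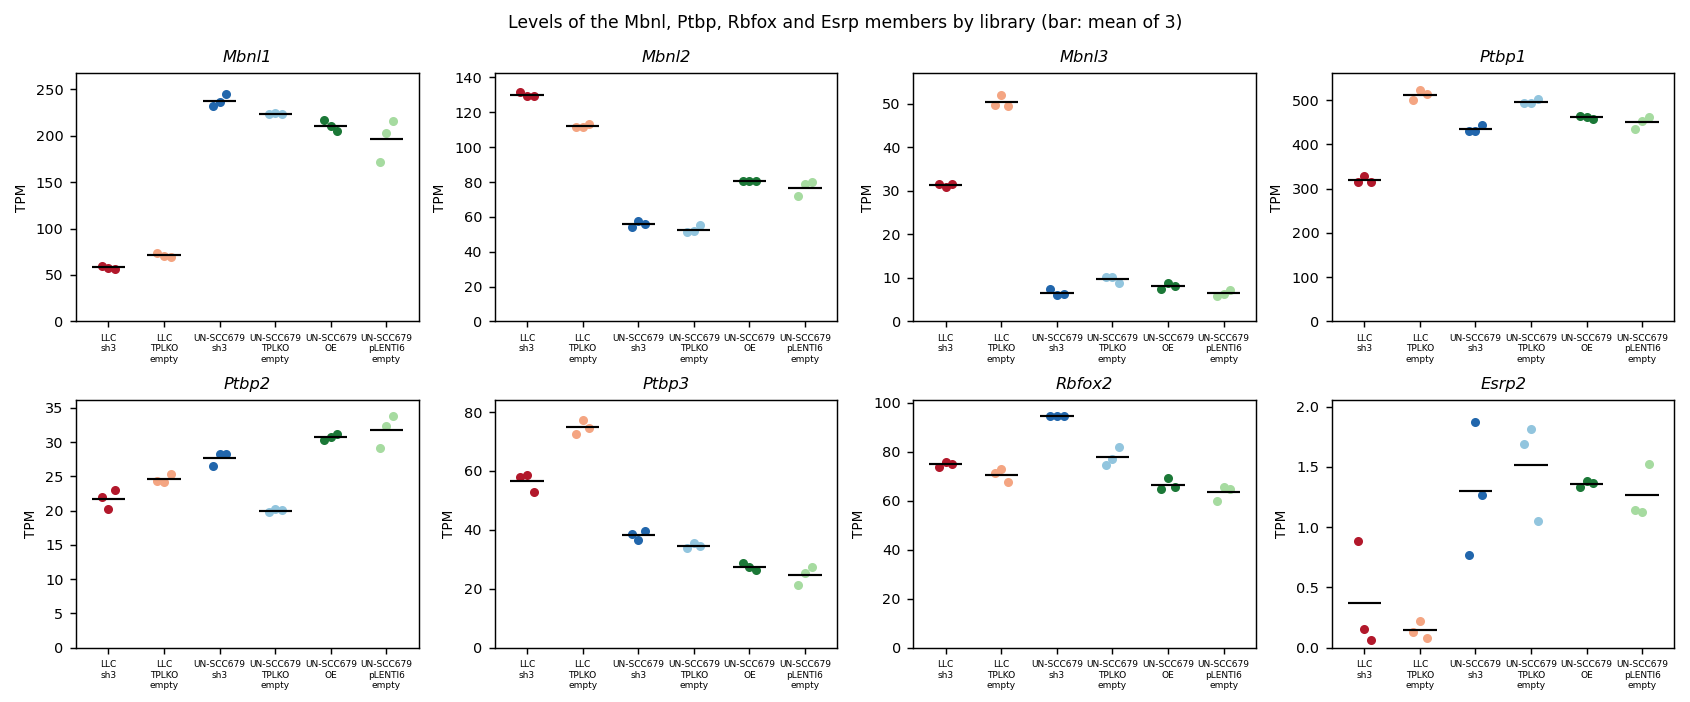
Level (TPM, vertical axis from 0) of Mbnl1, Mbnl2, Mbnl3, Ptbp1, Ptbp2, Ptbp3, Rbfox2 and Esrp2 in each of the 18 libraries, by group. Points are libraries and bars the mean of 3; Mbnl3 is lower in sh3 cells of both lines, Mbnl2 and Mbnl3 are higher in LLC than in UN-SCC679, and Mbnl1 is lower in LLC.

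With DSTYK raised in UN-SCC679, 9 of 40 members tested were called, 1 higher and 8 lower in OE cells (edgeR adjusted p under 0.05), against 14.6% of all 13975 genes tested higher and 15.2% lower (29.7% in either direction). The groups did not overlap for 14 of 40 members, against 46% of all genes. The 6 epithelial markers summed to between 767 and 806 TPM in OE cells, against 935 to 971 TPM with empty pLENTI6. The 6 squamous markers summed to between 122 and 129 TPM, against 117 to 121 TPM. Among them Krt6a (means of 59.6 and 47.7 TPM), Trp63 (2.82 and 1.28 TPM) and Krt14 (1.23 and 0.782 TPM) were higher. Sox2 was lower, with 62.0, 60.4 and 61.7 TPM in OE cells against 71.8, 66.2 and 71.0 TPM. The part of these lists was not tested. Mbnl3 was the called member that rose, with 17.4, 20.5 and 18.3 CPM in OE cells against 12.9, 14.4 and 15.8 CPM with empty pLENTI6 (log2 change 0.38 ± 0.082 SE, edgeR adjusted p = 0.00664). The lowest OE library lay above the highest empty-vector library, and 2 members were called higher without the first empty-vector library. Of the 8 that fell, Srsf4 changed most, with 48.9, 48.4 and 47.9 CPM in OE cells against 54.7, 52.3 and 52.2 CPM with empty pLENTI6 (log2 change -0.13 ± 0.030 SE, edgeR adjusted p = 0.00959). Hnrnpr, Hnrnpd, an AU-rich element binder also called AUF1, Hnrnpm, Srsf11, Srsf5, Hnrnph2 and Hnrnpul2 fell by 0.09 to 0.11 on the log2 scale. These falls were small and depended on single libraries: 9 members were lower without the first empty-vector library and 4 without the second, 2 without the first or the second OE library and 1 without the third. With limma on log2(TPM + 1) no member was called in either direction. No Tra2, Ptbp, Rbfox or Esrp gene was called; Ptbp2 had a log2 change of -0.06 ± 0.041 (SE), Ptbp1 of -0.02 ± 0.026, Ptbp3 of 0.07 ± 0.048, Rbfox2 of -0.02 ± 0.025, Tra2a of -0.02 ± 0.030, Tra2b of -0.05 ± 0.027 and Esrp2 of 0.25 ± 0.11. Mbnl1 and Mbnl2 had log2 changes of 0.03 ± 0.041 and 0.03 ± 0.039 (SE), also not called.

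No member transcript changed its share in OE cells by limma among 187 tested, where 0.0707% of all transcripts were called; 13 had an unadjusted p under 0.05, and edgeR's diffSpliceDGE called 1. No non-coding share was called by limma among 32 members or among all 6973 genes, a background of 0%, and 1 member and 524 genes had an unadjusted p under 0.05. The Tra2b exon was on 31.5, 31 and 29.7% of Tra2b counts in OE cells, against 32.4, 29 and 28.3% with empty pLENTI6, and the Srsf3 exon on 31.7, 30.5 and 29.6%, against 29.1, 30.1 and 29.4%. These ranges overlapped for both exons.

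The lines were compared in their empty TPLKO cells, which are also the controls of the knockdowns. LLC had more of most members: 30 of 40 tested were higher in LLC and 4 lower (edgeR adjusted p under 0.05), against 40.9% of all 14351 genes tested higher and 42% lower (82.9% in either direction). The median log2 difference was 0.26 over the members and -0.01 over all genes. The groups did not overlap for 34 of 40 members, against 84.3% of all genes. Strain, tumour type and line cannot be told apart here. On chromosome 17 the median gene was higher in LLC by 0.55 on the log2 scale, and relative to it Hnrnpll, Hnrnpm and Srsf3 were at -0.36, -0.24 and -0.23. On chromosome 3 the median gene was at -0.68, and relative to it Mbnl1, Srsf11 and Ptbp2 were at -0.71, 0.68 and 1.02. The medians of chromosomes 8 and 10 were -0.46 and -0.44. Relative to these, Esrp2 on chromosome 8 was at -3.82 and Hnrnph3 on chromosome 10 turned from -0.23 to 0.21.

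Esrp2 and the muscleblind genes differed most. Mbnl3 had 113, 115 and 110.4 CPM in LLC, against 22.8, 21.5 and 19.7 CPM in UN-SCC679 (log2 difference 2.40 ± 0.044 SE, edgeR adjusted p = 3.17e-13). Mbnl2 had 216, 215 and 210.3 CPM in LLC, against 92.5, 86.5 and 87.3 CPM in UN-SCC679, a log2 difference of 1.27 ± 0.027 (SE). Mbnl1 had 183, 180.2 and 174 CPM in LLC, against 480.4, 469 and 458 CPM in UN-SCC679, a log2 difference of -1.39 ± 0.025 (SE). In TPM, which is per length, Mbnl2 (112 ± 0.988 TPM) was the most abundant muscleblind gene of LLC and Mbnl1 (223 ± 0.796 TPM) that of UN-SCC679 (SD, n = 3 each). Esrp2 had 0.151, 0.0969 and 0.0925 CPM in LLC, against 2.65, 2.45 and 1.73 CPM in UN-SCC679 (log2 difference -4.28 ± 0.34 SE, edgeR adjusted p = 1.96e-07), and of the 6 epithelial markers Epcam, Cldn4 and Cdh1 were under 0.1 TPM in both groups. Krt8 averaged 0.523 TPM in LLC and 385 TPM in UN-SCC679, and Krt18 40.6 TPM in LLC and 175 TPM in UN-SCC679. Krt19 went the other way, with 0.778, 0.864 and 1.36 TPM in LLC and 0 TPM in every UN-SCC679 empty TPLKO library. The list summed to between 40.1 and 45.8 TPM in LLC, against 543 to 568 TPM in UN-SCC679, and its part was not tested. Ptbp3 had 234, 233 and 221 CPM in LLC, against 113, 109 and 106 CPM in UN-SCC679, a log2 difference of 1.07 ± 0.029 (SE); Ptbp2 differed by 0.35 and Ptbp1 by 0.06, while Rbfox2 was not called (-0.04 ± 0.021 SE). Tra2a and Tra2b were higher in LLC by 0.17 and 0.42, but Tra2a on coding transcripts alone was at -0.04 on the log2 scale and not called. Hnrnpul2, Hnrnph1 and Hnrnpd were higher in LLC by 0.74, 0.72 and 0.67, and 9 of 10 SR genes were higher, by 0.14 for Srsf9 up to 0.66 for Srsf6, but on coding transcripts alone Srsf3 and Srsf11 were lower in LLC, at -0.43 and -0.32 (edgeR adjusted p = 2.31e-05 and 9.46e-05).

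Isoform shares differed between the lines for 38 of 198 member transcripts in 21 genes (limma adjusted p under 0.05), against 6.85% of all transcripts tested, and for 14 to 24 when any 1 of the 6 libraries was left out. Srsf3-202, the coding transcript, took 33.4, 33.8 and 31% in LLC, against 55, 55.7 and 55% in UN-SCC679 (log2 odds -1.34 ± 0.084 SE, limma adjusted p = 0.00117). The coding transcript Srsf7-201 took 22.4, 20.7 and 21.9% in LLC, against 35.5, 36 and 37.4% in UN-SCC679, and the decay transcript Srsf7-203, which holds the exon printed above, 8.45, 9.89 and 8.30% against 4.10, 4.37 and 3.62% (limma adjusted p = 0.00362 and 0.0115). In Hnrnpa3, Hnrnpa3-202 took 63.9, 62.4 and 63.4% in LLC, against 41, 37 and 37.4% in UN-SCC679, and Hnrnpa3-203 took 35.2 ± 0.795% in LLC and 60.7 ± 2.03% in UN-SCC679 (SD, n = 3 each; limma adjusted p = 0.00137 and 0.00109). Hnrnpk-224 took 17 ± 3.28% in LLC and 36.2 ± 6.79% in UN-SCC679, and Hnrnpl-202, from a gene whose protein binds CA repeats, 45.3 ± 2.94% and 59.7 ± 3.76%, and both of these calls were lost whichever library was left out. The non-coding share was higher in LLC for 9 and lower for 3 of 34 members, against 5.16% and 3.45% of all genes, and without any 1 library 4 to 7 members were called. Srsf7 had 42.6, 42.4 and 41% in LLC, against 17.5, 16.8 and 17.3% in UN-SCC679 (log2 odds 1.80 ± 0.11 SE, limma adjusted p = 8.76e-04). Srsf3, Srsf11, Tra2a and Srsf10 were also higher in LLC, with 67.3 ± 1.53%, 54.3 ± 1.77%, 33.6 ± 1.51% and 15.5 ± 1.03% there and 44.8 ± 0.411%, 43.2 ± 1.99%, 23.1 ± 0.793% and 8.51 ± 1.37% in UN-SCC679. Srsf5 was lower, with 24.5 ± 1.13% in LLC and 36.7 ± 2.07% in UN-SCC679. The calls of Srsf11 and Tra2a were lost whichever library was left out, that of Srsf10 without any library except the first of UN-SCC679, and that of Srsf5 without any except the third of UN-SCC679.

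The genes that act with these regulators were taken from 4 lists. Over all genes tested, 36.2% were higher and 36.4% lower in LLC sh3 cells, 31.8% and 32% in UN-SCC679 sh3 cells, 14.6% and 15.2% in OE cells, and 40.9% and 42% in LLC against UN-SCC679, with median log2 changes of 0.01, 0.01, 0.00 and -0.01. Of the kinases and the importer of SR proteins, 9 of 10 were tested. In LLC sh3 cells 4 were higher and 5 lower (median log2 change -0.12), in UN-SCC679 sh3 cells 5 higher and 1 lower (median 0.10), and in OE cells 2 higher and 1 lower (median 0.04). Clk2, which phosphorylates SR proteins in the nucleus, had 37.4, 41.3 and 39.2 CPM in LLC sh3 cells against 25, 24.2 and 25.9 CPM in empty-vector cells (log2 change 0.65 ± 0.044 SE, edgeR adjusted p = 2.21e-08). In UN-SCC679 it had 53.8 ± 1.67 CPM in sh3 cells and 43 ± 1.14 CPM in empty-vector cells, a log2 change of 0.33 ± 0.035 (SE), and 53.5 ± 1.15 CPM in OE cells and 59.4 ± 1.42 CPM with empty pLENTI6, a log2 change of -0.15 ± 0.031 (SE, edgeR adjusted p = 0.0054). Srpk2, a cytoplasmic SR protein kinase, rose by 0.34 in UN-SCC679 sh3 cells, and Prpf4b fell by 0.25 in LLC sh3 cells and rose by 0.12 in OE cells. Between the lines 7 of these genes were higher in LLC and 2 lower (median 0.58), with Srpk1 at 281 ± 2.63 CPM in LLC and 121 ± 0.387 CPM in UN-SCC679 (log2 difference 1.21 ± 0.019 SE, edgeR adjusted p = 8.51e-14) and Prpf4b higher by 0.62.

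Of 41 core spliceosome genes tested, 4 were higher and 35 lower in LLC sh3 cells (median log2 change -0.33), 5 higher and 29 lower in UN-SCC679 sh3 cells (median -0.14), 1 higher and 8 lower in OE cells (median -0.07) and 26 higher and 11 lower in LLC than in UN-SCC679 (median 0.28). The branch site factor Sf3b3 had 206 ± 3.67 CPM in LLC sh3 cells and 379 ± 4.86 CPM in empty-vector cells (SD, n = 3 each), a log2 change of -0.88 ± 0.018 (SE), and U2af2, which reads the polypyrimidine tract, changed by -0.75 ± 0.018 (SE). In UN-SCC679 sh3 cells Sf3a2 changed by -0.47 and Eftud2 by -0.37, and in OE cells Snrpd1 by -0.21 and Sf3a3 by -0.19. Ddx46 and Sf3b2 were higher in LLC by 0.87 and 0.68. Of 16 genes of nonsense-mediated decay and the exon junction complex, 1 was higher and 13 lower in LLC sh3 cells (median log2 change -0.33), 4 higher and 11 lower in UN-SCC679 sh3 cells (median -0.22), 2 higher and 2 lower in OE cells (median -0.03), and 9 higher and 6 lower in LLC than in UN-SCC679 (median 0.18). Smg5, which acts in the dephosphorylation of UPF1, had 97.7, 99.3 and 96.5 CPM in LLC sh3 cells against 177, 178 and 176 CPM in empty-vector cells (log2 change -0.86 ± 0.020 SE), and Eif4a3, the anchor of the exon junction complex, fell by 0.42 on the log2 scale. Upf1, the central helicase of decay, had 189, 186 and 188 CPM in UN-SCC679 sh3 cells against 269, 264 and 274 CPM in empty-vector cells (log2 change -0.52 ± 0.021 SE), and Smg5 fell there by 0.36. Upf1 rose by 0.15 in OE cells (edgeR adjusted p = 0.00325), and Smg5 and Upf1 were lower in LLC than in UN-SCC679, with log2 differences of -1.13 and -1.06. The part of these decay genes in the shares of decay transcripts was not tested.

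Of the other splicing regulators, 32 of 35 were tested in LLC, where 8 were higher and 18 lower in sh3 cells (median log2 change -0.18), 34 in the UN-SCC679 knockdown (18 higher, 8 lower, median 0.09), 33 in the overexpression (2 higher, 7 lower, median -0.04) and 33 between the lines (23 higher and 7 lower in LLC, median 0.43). Sfpq, an RNA-binding protein of nuclear bodies, had 149 ± 1.96 CPM in LLC sh3 cells and 342 ± 3.96 CPM in empty-vector cells (SD, n = 3 each), a log2 change of -1.20 ± 0.017 (SE). Elavl1 changed by -0.35 and Rbm47 by 2.03 in UN-SCC679 sh3 cells, where Rbm47 had 3.89, 3.84 and 4.4 CPM against 0.941, 0.953 and 1.07 CPM in empty-vector cells. In OE cells Nova1, a neuronal regulator, had 0.272, 0.0476 and 0.168 CPM against 1.52, 2.24 and 1.70 CPM with empty pLENTI6, and Sap18 changed by -0.32. Between the lines Celf2 had 0.151, 0.0484 and 0.139 CPM in LLC against 105, 95.8 and 95.4 CPM in UN-SCC679, and Pcbp2 had 875 ± 3.45 CPM in LLC and 318 ± 3.29 CPM in UN-SCC679.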

How the data were processed

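The submitters' processing notes name kallisto, sleuth and the mouse build mm10; versions were not given in the sources used here. The authors deposited estimated counts and effective lengths per transcript, which kallisto gives by dividing reads that match several transcripts among them; near-identical isoforms and gene copies are therefore uncertain. Per the labels' protocols, libraries came from a stranded mRNA kit with reads of 75 bases. Transcript IDs were matched to GENCODE mouse release 21 (116816 of 118489); the 1673 others held 0.515% to 0.593% of counts and were left out. Counts were summed per gene, rounded and tested in R 4.3.3 with edgeR 4.0.16 (TMM scaling, minimum count 10, total 15, quasi-likelihood test, Benjamini-Hochberg adjustment over all genes). CPM follow TMM scaling, and TPM were computed from counts and effective lengths. SE of log2 changes come from the F statistic. Shares were tested with limma 3.58.1 (trend) on log2 odds with a pseudocount of 0.5, for transcripts with a mean of 10 counts and 1% of their gene, or genes with 10 counts in each class. Procedures were tested on simulated counts. The phenotype label is the same for both arms of an experiment, so groups were taken from sample titles.

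The members, the 4 pathway lists and the tests were chosen with earlier results of these data known. Values are named for Dstyk, every tested Tra2, Ptbp, Mbnl, Rbfox and Esrp gene, the 8 largest member changes, 6 largest changes of transcript share and 6 of non-coding share among called, non-overlapping ones per comparison, 2 called genes per list (those of smallest adjusted p, some of which are not reported here), and the 5 most abundant members per group. Alternatives were RLE and library-size scaling, other filters, DESeq2 1.42.0, limma on log2(TPM + 1), coding transcripts only, other pseudocounts and minimum counts, effective-length weighting, diffSpliceDGE, the replicate number as a block, each library left out and, added after seeing the data, chromosome medians as offsets.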

Additional observations from a re-analysis of the deposited data

Results flagged for a closer look

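The effect of sh3 differed between LLC and UN-SCC679 for 36 of 40 members tested by the interaction in edgeR, against 60% of all genes. Largest were the differences of Srsf1, with an LLC effect minus UN-SCC679 effect of -1.23 on the log2 scale, Hnrnpm (-1.20), Hnrnph1 (-1.13), Srsf6 (-1.10), Hnrnph2 (-0.99), Hnrnpa2b1 (-0.95), Srsf3 (-0.91) and Srsf2 (-0.87). For Hnrnpm the log2 changes were -1.12 in LLC and 0.07 in UN-SCC679 (-0.18 relative to the median of its chromosome), and for Hnrnph1 -0.88 in LLC and 0.25 in UN-SCC679. For Srsf3 they were -0.92 in LLC and -0.02 in UN-SCC679 (-0.27 relative to the median of its chromosome). Hnrnph3 was the member with a higher effect in LLC (0.36). Dstyk itself fell by 0.89 in LLC and by 0.50 in UN-SCC679 on the log2 scale. The part of this difference in dose was not tested.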

How the results depend on the processing

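Gene counts in the LLC knockdown stayed at 4 members higher and 34 lower whichever library was left out, and in LLC against UN-SCC679 at 30 to 31 higher and 4 lower. Coding transcripts alone gave 7 lower between the lines. In the UN-SCC679 knockdown, leaving out a library gave 12 to 17 higher and 11 to 13 lower, and library size alone gave 7 lower. In the overexpression, leaving out a library gave 1 to 2 higher and 1 to 9 lower, limma on log2(TPM + 1) 0 higher and 0 lower, and chromosome medians as offsets 4 lower. The interaction count ranged from 36 to 37.

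Shares were less stable. Leaving out a library gave 25 to 33 changed member transcripts in LLC sh3 cells, 0 to 2 in UN-SCC679 sh3 cells, 0 in OE cells and 14 to 24 between the lines; fewer libraries leave less power by construction. edgeR's diffSpliceDGE gave 33 in LLC sh3 cells, 25 between the lines, 1 in OE cells and 1 in UN-SCC679 sh3 cells. Changed non-coding shares numbered 5 to 7 without a library and 7 with effective-length weighting in LLC sh3 cells, and 4 to 7 and 7 between the lines. Of the 6 named non-coding shares in LLC, Hnrnpdl lost its call with effective-length weighting.

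Same-numbered libraries did not deviate together (correlations between -0.0743 and 0.0790 over genes), and in no comparison did every library correlate best with its own number, so the numbers were not taken as pairs. With the replicate block, 5 members were lower in OE cells, 4 member transcripts had changed shares in LLC sh3 cells (among them Tra2b-206 and Hnrnpdl-202), 0 in UN-SCC679 sh3 cells and 4 between the lines, and 0 non-coding shares changed in LLC sh3 cells and 4 between the lines; the block uses residual degrees of freedom.

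Directions turned in UN-SCC679 sh3 cells relative to chromosome medians for Tra2b (-0.14), Hnrnpm (-0.18) and Hnrnpll (-0.12) and on coding transcripts for Srsf6 (0.02), and between the lines on coding transcripts for Tra2a (-0.041) and Srsf3 (-0.43), among others; the cause was not tested. Depth was ample for most members, but isoforms that share most of their sequence carry an estimation error that the counts do not show.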

Other observations

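Some members differed between UN-SCC679 cells with empty pLENTI6 and UN-SCC679 cells with empty TPLKO. The examples given here were chosen after their values were seen, and the members and genes that differed were not counted. Hnrnpa1 had 1072, 1067 and 1056 TPM with empty pLENTI6 and 547, 535 and 545 TPM with empty TPLKO. Hnrnpk had 631, 657 and 666 TPM with empty pLENTI6 and 1005, 1083 and 1071 TPM with empty TPLKO. The stop-carrying Tra2b exon was on 32.4, 29 and 28.3% of Tra2b counts with empty pLENTI6 and on 11.5, 13.7 and 9.44% with empty TPLKO, and the in-frame Hnrnpa2b1 exon was on 81.1, 80.2 and 80.8% and 60.6, 62.4 and 58.5%. None of these ranges overlapped. Vector, doxycycline and experiment cannot be told apart between these groups, and no test was run.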
